A study of Mus musculus with 32 samples.

Results

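Untreated DBA mesentery was compared with untreated BALB/c mesentery, to give the strain difference that existed before any oil was injected. The comparison holds 6 of the 32 arrays of the series, 3 of DBA and 3 of BALB/c, which were taken by strain, by the absence of treatment and by their title codes (201, 202 and 203 for DBA, 198, 199 and 200 for BALB/c), all of one series of codes. Mesentery, the sheet that suspends the gut, holds fat, vessels, nerves and lymphoid tissue. In the series, mice received 0.5 ml of pristane (TMPD), a hydrocarbon oil, into the peritoneal cavity and were studied at day 3 or day 18; untreated animals were prepared alongside. The labels give the strains as BALB/c and DBA with no substrain, and give no age or sex, and they do not say whether an array holds 1 animal or a pool, so p-values measure the spread between these arrays. Beside the 6 arrays stand 7 other untreated ones (3 DBA, 4 BALB/c) whose title codes belong to different series for each strain, so that strain and code series cannot be told apart there. The titles of those BALB/c arrays hold the letters mix in their codes, with no explanation. Also used are 6 arrays taken 3 days after pristane (3 DBA, 3 BALB/c) and 3 of untreated F1 mice of the parental strains, all of the code series of the compared controls.

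BALB/c mice are known for developing plasma cell tumours after pristane, and DBA mice for resisting them, so that the genes that differ between these inbred strains have long been of interest. A fixed difference between inbred strains can alter the level of a transcript. It can also alter the letters under an array probe, in which case the signal changes while the transcript may not. Among the genes described here, the Ifi200 family and the guanylate-binding proteins belong to the interferon response, Ucp1 and its partners mark heat-producing fat, and the heat shock proteins are chaperones that fold proteins and are made in larger amounts when cells are stressed.

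Upstream sequences are shown for 4 genes from the groups on which the comparison turns, the interferon-related genes that were far lower in DBA and the chaperones. Each is the 250 bases before the annotated start in RefSeq (GRCm38.p6), which is the C57BL/6J reference and not either strain studied. Capitals mark matches, on either strand. In Mndal and Gbp2b the motif is GAAA and GAAA parted by any 2 bases, a core of the interferon-stimulated response element. In the Hsp genes it is GAANNTTC, a unit of the heat shock element that reads the same on both strands. The first motif is found in 2.98% of the 32851 promoters of the same length and the second in 6.69%.
Mndal, chr1:173880188-173880437, minus strand: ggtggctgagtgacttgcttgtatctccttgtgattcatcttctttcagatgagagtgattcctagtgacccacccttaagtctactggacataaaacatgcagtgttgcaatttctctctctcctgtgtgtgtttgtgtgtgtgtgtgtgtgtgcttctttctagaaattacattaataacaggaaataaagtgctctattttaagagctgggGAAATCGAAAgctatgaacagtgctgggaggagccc
Gbp2b, chr3:142594597-142594846, plus strand: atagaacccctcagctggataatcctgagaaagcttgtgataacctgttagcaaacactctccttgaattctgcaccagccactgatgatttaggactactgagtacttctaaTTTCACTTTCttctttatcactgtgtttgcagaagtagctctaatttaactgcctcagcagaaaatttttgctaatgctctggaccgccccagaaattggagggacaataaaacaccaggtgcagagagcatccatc
Hspa1b, chr17:34959239-34959488, minus strand: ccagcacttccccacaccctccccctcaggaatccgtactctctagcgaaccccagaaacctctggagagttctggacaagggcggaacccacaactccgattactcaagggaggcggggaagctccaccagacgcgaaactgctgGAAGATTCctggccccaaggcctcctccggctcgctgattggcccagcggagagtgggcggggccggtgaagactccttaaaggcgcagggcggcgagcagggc
Hspb1, chr5:135887669-135887918, plus strand: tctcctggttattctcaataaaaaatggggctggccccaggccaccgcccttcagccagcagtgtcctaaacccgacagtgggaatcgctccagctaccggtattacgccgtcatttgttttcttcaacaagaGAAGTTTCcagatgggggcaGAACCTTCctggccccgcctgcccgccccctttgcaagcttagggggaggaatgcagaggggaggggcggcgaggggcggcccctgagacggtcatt
Only sequences with a match are shown. Of 3 genes looked at for the first motif, 2 held it and Xaf1 did not. Of 5 with a promoter entry looked at for the second, 3 did, namely Hspb1, Hspa1a and Hspa1b. The upstream bases of Hspa1a and Hspa1b are nearly the same and count as 1 observation. Hsph1, the chaperone with the largest difference, and Dnajb1 held no match. RefSeq gives a second start for Mndal, whose upstream bases hold a match too. A match is a run of letters and was not measured as a binding site.

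The 6 arrays were alike in quality. Their median signals ran from 91.5 to 97.5, and arrays of one strain correlated at 0.9757 to 0.9863 (Pearson's r over log2 signals of all genes tested) against 0.9582 to 0.9698 between strains. Beta-actin probe sets at the 3′ end were brighter than those at the 5′ end by a factor of 2.42 ± 0.28 in BALB/c and 2.44 ± 0.38 in DBA (SD, n = 3). Xist was high and Kdm5d low on all 6, the pattern of female tissue, whereas the 3 F1 controls showed the opposite pattern; this stands beside every F1 value below. Summed signals of the 19 adipocyte markers on the array overlapped, at 275936 to 372466 in BALB/c and 256536 to 319483 in DBA, and none was dim on all 6 arrays, so both strains' samples carried the fat that mesentery holds. Pancreatic acinar markers, a sign of tissue next to the mesentery, summed to 320.4 to 617.9 in BALB/c and 1020 to 2195 in DBA, with 10 of 12 below the dim filter on all 6 arrays and 0 of 11 tested genes called; their part in the results was not tested. One other array, BALB/c replicate 2 among the other controls, held acinar markers summing to as much as 1333710 and correlated with its group at as little as 0.8404. The other controls also held arrays of both Xist patterns. The outlying array adds nothing to the compared means but enters the spread shared by all arrays.

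Of 13016 genes tested, 999 (7.68%) differed at an adjusted p under 0.05 in limma's moderated test, 525 higher in DBA (4.03%) and 474 lower (3.64%). A gene is called only in this sense below. Of the 999, 323 differed by at least 2-fold on the scale of the test, 163 higher and 160 lower. The arrays of the strains did not overlap in 981 of the 999, against 30.2% of all genes tested. The calls were made on these same 6 arrays, so this lack of overlap follows largely from the choice of genes. Differences are given as log2(signal + 24.9) in DBA minus that in BALB/c, a scale on which large differences of dim genes are understated, and levels are signals in arbitrary units. The count of calls rose to 1653 without the outlying BALB/c array named above, and fell to 635 without BALB/c replicate 3 and to 663 without DBA replicate 2.

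**Figure D1:**
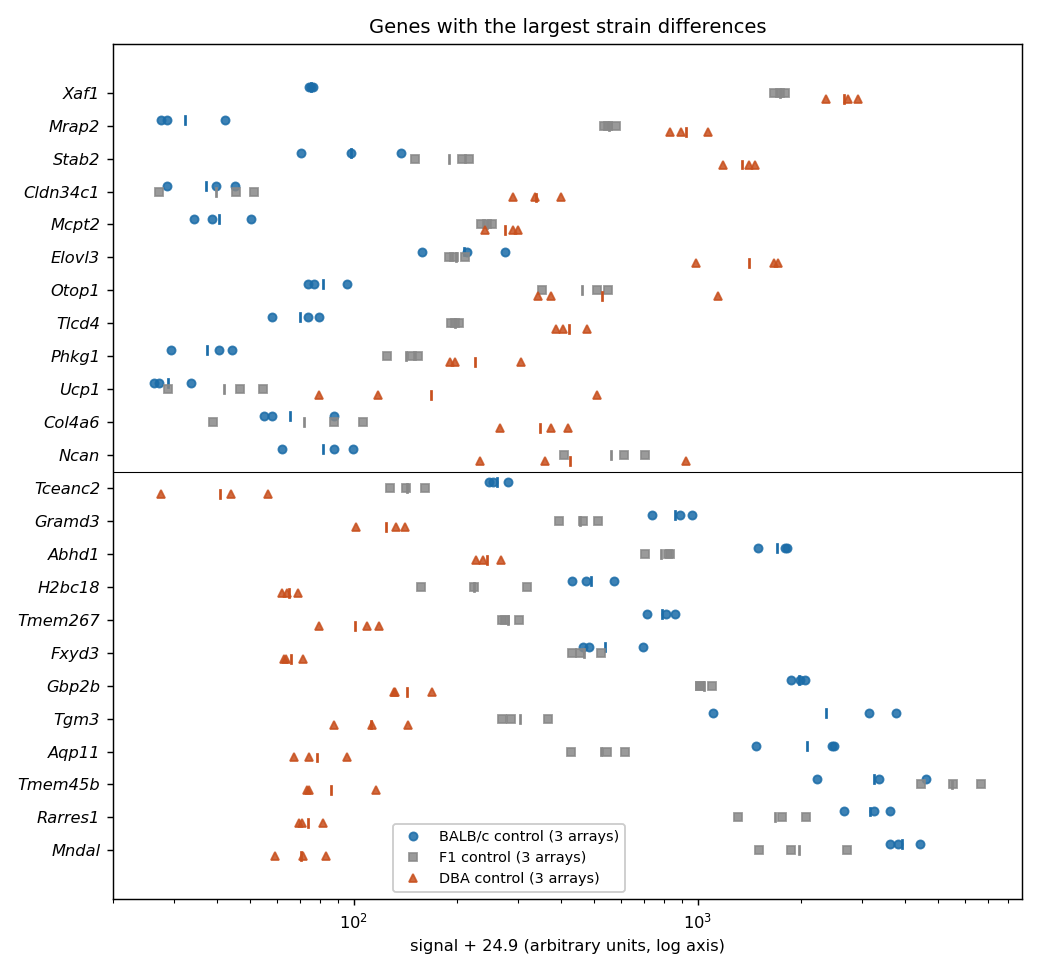
Signal plus 24.9 (log axis) of the 24 genes with the largest called differences on each of 3 BALB/c (circles), 3 F1 (squares) and 3 DBA (triangles) control arrays; the short bar is the mean on the log scale. BALB/c and DBA arrays are apart in every row by the rule that chose the genes, and the F1 means lie between them in 21 of 24.

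The largest difference was in Mndal, an Ifi200-family gene of the interferon-inducible DNA sensors that has been studied as a candidate for plasmacytoma susceptibility. Its signal was 3604, 3787 and 4396 on the BALB/c arrays and 46.2, 58.0 and 34.1 on the DBA arrays. All DBA values lay below the dim filter of 103.7 (the median of all values), so that the level in DBA could not be told from background. The log2 difference was -5.81 ± 0.43 (SE; adjusted p = 6.15e-10, limma). Its other probe set gave -5.80, with signals of 1472, 1494 and 1616 in BALB/c and at most 7.3 in DBA. In the F1 it stood at 1483, 1848 and 2701, between the parents.

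Of the 6 tested Ifi200-family genes, Mndal was the only one called. Ifi204, Ifi202b, Ifi203 and Ifi207 had negative differences of -0.53, -0.42, -0.23 and -0.03 and Ifi209 a positive one of 0.25, none past the threshold. Gbp2b, a guanylate-binding protein of the response to interferon gamma, was at 1843, 1959 and 2031 in BALB/c and 106.9, 144.4 and 106.4 in DBA. This is 16.3-fold less by mean signal (log2 difference -3.78 ± 0.18, adjusted p = 5.07e-14, limma). F1 arrays gave 993.8, 1077 and 990.7, about the middle of the parental means.

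Few other interferon-induced genes were called at rest. Among 32 type I interferon-stimulated genes 1 was higher in DBA (Xaf1, below) and 4 were lower, a share of 15.6% beside the 7.68% of all genes, with a median difference of -0.29 against 0.004 for all genes. Eif2ak2, the kinase that halts translation on sensing double-stranded RNA, was lower by a log2 difference of -0.79 (283.0, 276.1 and 287.3 in BALB/c, 162.1, 161.6 and 136.7 in DBA). Ifi27l2a, a small mitochondrial interferon-induced protein, stood at -0.80 (adjusted p = 0.00359, limma). Rtp4, a receptor transporter induced by interferon, was at -0.91, a call lost without BALB/c replicate 3 (adjusted p = 0.0724). Ifi44l was at -1.76, with at most 33.7 in DBA and at least 101.5 in BALB/c, a call lost without any 1 of 5 of the arrays (DBA replicate 1 was the exception) with adjusted p up to 0.107. None of 15 interferon gamma response genes and GTPases, 11 MHC class I and 9 MHC class II genes was called by limma.

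After pristane more of these lists' genes passed the test. In the day 3 arrays 9.1% of all genes were called and 4.43% were lower in DBA. There 29 of 32 type I interferon-stimulated genes were lower in DBA, as were 8 of the 15 interferon gamma genes on the list without Gbp2b. The strain difference itself differed between untreated and treated arrays in Ifi44l (by 3.38, adjusted p = 0.0173, limma) and Rtp4 (by 1.54, adjusted p = 0.0195, limma). Gbp2b was at 3770 to 5564 in treated BALB/c and 138.8 to 163.9 in treated DBA, and Mndal at 7174 to 10598 and 11.6 to 107.8.

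After Mndal, the largest decreases in DBA were in Rarres1 and Tmem45b. Rarres1, a carboxypeptidase inhibitor induced by retinoic acid, was at 2632, 3241 and 3610 in BALB/c and 45.9, 44.5 and 56.6 in DBA (log2 difference -5.42 ± 0.19, adjusted p = 1.62e-17, limma). The membrane protein gene Tmem45b was at 3346, 4589 and 2198 against 91.3, 48.3 and 49.1 (-5.25 ± 0.52). F1 arrays had 4425, 6645 and 5504, at or above the BALB/c level. Aqp11, an intracellular aquaporin, was at 2437, 1449 and 2472 against 70.7, 49.2 and 42.0 (-4.74), and Tgm3, a transglutaminase that cross-links proteins of skin and hair, at 3127, 1081 and 3754 against 62.8, 88.2 and 118.6 (-4.39). The second probe sets of Aqp11 and of Tgm3 were called in the same direction.

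The rest of the 12 largest decreases were in Fxyd3, a regulator of the sodium pump (-3.03), Tmem267 (-2.97), the histone gene H2bc18 (-2.91), the hydrolase gene Abhd1 (-2.80), Gramd3 (-2.79) and Tceanc2 (-2.67). Abhd1 kept a measurable level in DBA, at 212.7, 244.0 and 201.5 beside 1474, 1794 and 1769 in BALB/c, which is 7.65-fold less by mean signal. Of those 12 genes, 11 had DBA and BALB/c arrays apart on all 26 arrays of the parental strains, beside 0.461% of all genes. Tmem45b was the exception. The 26 include the 6 compared arrays, which were apart by the rule that chose the genes. Chosen after its values were seen, Hal, the enzyme that begins histidine breakdown, was at 652.1, 736.4 and 603.6 in BALB/c and 107.9, 113.7 and 72.4 in DBA (-2.50 ± 0.21).

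In the other direction Xaf1, an interferon-induced partner of the apoptosis inhibitor XIAP, was the gene most raised in DBA by its brightest probe set. It stood at 49.3, 51.4 and 50.4 in BALB/c and at 2338, 2898 and 2714 in DBA (log2 difference 5.15 ± 0.13, adjusted p = 1.7e-20, limma). Its second probe set went the opposite way, at 581.4, 685.9 and 875.7 in BALB/c and 137.8, 122.4 and 150.4 in DBA (-2.18 ± 0.23, adjusted p = 1.35e-07 over all probe sets, limma). The direction of Xaf1 therefore depends on which of its probe sets is read. Mrap2, which modulates melanocortin receptors that control appetite and fat, was at 17.3, 3.8 and 2.7 in BALB/c and 804.8, 871.0 and 1048 in DBA (4.85 ± 0.26), and only 1 of its probe sets could be tested.

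Stab2, a scavenger receptor of sinusoidal and lymphatic endothelium that clears hyaluronan, was at 73.6, 112.6 and 45.3 in BALB/c and 1159, 1447 and 1388 in DBA (3.78 ± 0.29). F1 arrays had 190.8, 125.9 and 181.5, nearer to BALB/c. Its difference was smaller in the other controls (2.29), by 1.49 (adjusted p = 0.0397, limma). Of other endothelial genes, 0 of the 16 tested endothelial markers were called by limma (median 0.17), and without the outlying BALB/c array 1 was higher and 1 lower. Mcpt2, a mucosal mast cell protease, was at 13.8, 25.2 and 9.5 against 275.8, 266.0 and 215.9 (2.77 ± 0.51). It was 1 of 9 mast cell markers tested and the only one called, and the summed signal of the list overlapped between strains (2667 to 3087 in BALB/c, 2343 to 2777 in DBA).

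The claudin gene Cldn34c1 (3.19), Tlcd4 (2.60), Phkg1, the muscle form of the catalytic subunit of phosphorylase kinase (2.59), the basement membrane collagen gene Col4a6 (2.41) and Ncan, a proteoglycan of brain matrix (2.39), were also among the 12 largest increases, from which predicted and clone-named genes were left out by rule (6330403K07Rik, at 3.39, was one). In Ncan the DBA arrays spread from 208.6 to 897.2 beside 37.1 to 74.7 in BALB/c. F1 levels of Cldn34c1 and Col4a6, at most 26.4 and 81.7, were near those of BALB/c, while those of Ncan, at 384.4 to 676.5, were in the DBA range. Ccl27a, a chemokine that draws T cells to skin, was higher in DBA, at 120.1, 152.7 and 114.6 in BALB/c and 662.0, 530.2 and 556.4 in DBA (1.98 ± 0.22).

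Among genes chosen after their values were seen, Hsd11b1, the enzyme that regenerates active glucocorticoid inside cells, was the brightest with a large difference. It stood at 2798, 2819 and 3159 in BALB/c, 5528, 7677 and 6080 in F1 and 15532, 12440 and 12224 in DBA (log2 difference 2.18 ± 0.21, adjusted p = 3.66e-08, limma), a 4.58-fold higher mean signal. No DBA array of the series was as low as any BALB/c array. Arl2bp, which binds a small GTPase of the cilium and mitochondrion, was higher by 2.24 ± 0.17 and Chchd4, the oxidoreductase that imports proteins into mitochondria, by 1.66 ± 0.09 (3 DBA and 3 BALB/c arrays each).

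Genes of heat-producing fat were higher in DBA. Of 10 tested members of the thermogenic list 4 were higher and 1 lower, 50.0% called beside 7.68% of all genes, and 9 of 10 had a positive difference, with a median of 0.66. Elovl3, which lengthens fatty acids in brown fat, was at 188.0, 132.6 and 249.8 in BALB/c and 1642, 962.3 and 1692 in DBA (2.75 ± 0.52, adjusted p = 0.000877, limma). The proton channel gene Otop1 was at 48.6, 70.4 and 51.6 against 1120, 317.6 and 349.4 (2.70 ± 0.38). Ucp1, the mitochondrial uncoupling protein that releases heat, was below the dim filter on 5 of the 6 arrays, at 8.8, 1.4 and 2.2 in BALB/c and 485.8, 54.2 and 92.4 in DBA (2.54 ± 0.51).

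Cidea, a lipid droplet protein abundant in brown fat, was at 1141, 990.7 and 958.5 against 4913, 3627 and 4971 (2.09 ± 0.62). Its call was lost when any 1 of the 6 arrays was left out, with adjusted p from 0.0669 to 0.109, although its arrays did not overlap. DBA replicate 1 was the highest for Ucp1 and Otop1, and Elovl3 was high on all 3 DBA arrays. The calls for Elovl3, Otop1 and Ucp1 held without any 1 of the 6 arrays. Plin5, a droplet protein of fat-burning cells named after its values were seen, went with them (281.7, 326.1 and 270.0 against 1777, 1228 and 1222, at 2.16 ± 0.38).

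Other members of the thermogenic list were lower or not called. Dio2, the deiodinase that activates thyroid hormone, was lower in DBA, at 321.9, 314.5 and 337.5 in BALB/c and 106.5, 111.9 and 100.6 in DBA (-1.41 ± 0.29, adjusted p = 0.00219, limma). The regulators Prdm16 (0.41) and Ppargc1a (0.12) were not called, nor were Cox7a1 (0.54), Cox8b (0.79) and Fabp3 (0.45). Of 19 adipocyte markers 1 was called, Cidea, which is on both lists. The list's median difference was -0.06. In bulk tissue, more cells of a type and more RNA per cell cannot be told apart, here or in the groups that follow. The summed thermogenic signal was 6069 to 7731 in BALB/c and 13792 to 17061 in DBA. Most of it came from Cox8b, which was not called (3320 to 5422 against 7057 to 8771), and from Cidea, whose call was lost without any 1 array. The sums also did not overlap between strains in the other controls (5686 to 10256 against 17824 to 21280). On day 3 of pristane the sums were lower and overlapped (2986 to 3957 against 3682 to 5831). There 1 of the 10, Otop1 (1.64), was called higher, with a list median of 0.61, and Elovl3 stood at 0.68 (adjusted p = 0.507, limma). F1 sums of 7243 to 8411 were close to BALB/c; F1 arrays matched BALB/c in Elovl3 (164.0 to 186.1) and DBA in Otop1 (328.5 to 523.2).

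**Figure D2:**
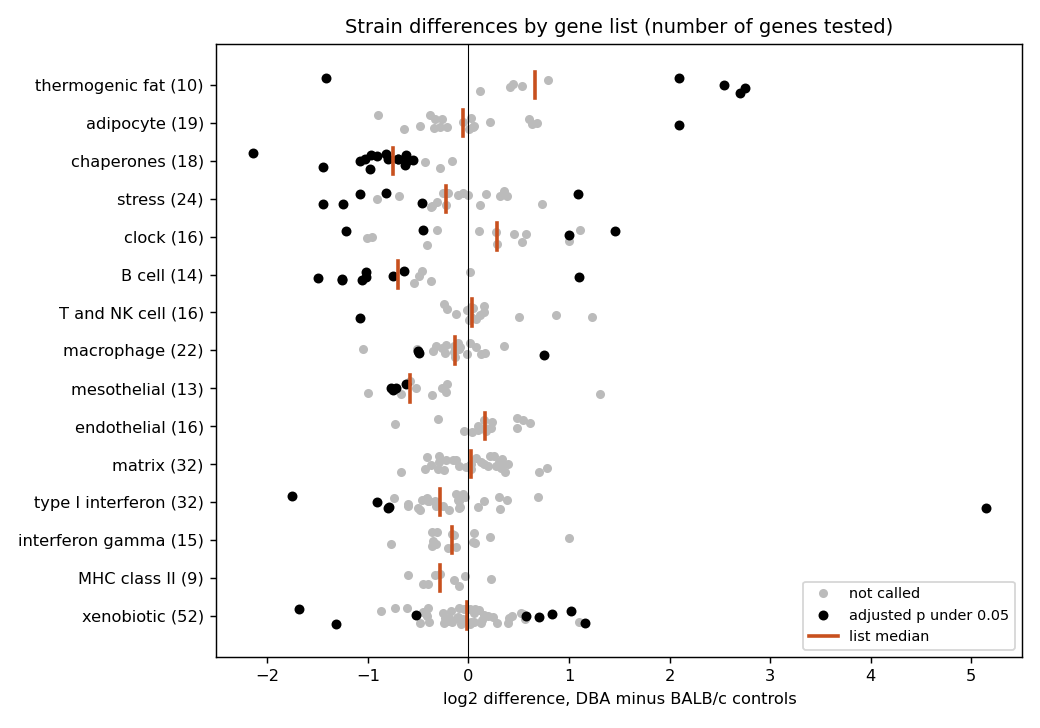
Log2 difference, DBA minus BALB/c controls, of each tested gene (point) in 15 lists, black where the adjusted p is under 0.05 and grey otherwise, with the list median as a bar. Called genes lie mostly to the right in the thermogenic list (median 0.66) and to the left in the B cell (-0.70) and chaperone lists (-0.75).

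Fatty acid desaturases went the other way. Fads1 was at 3852, 3984 and 4519 in BALB/c and 2658, 2547 and 2940 in DBA (-0.60 ± 0.12, adjusted p = 0.0024, limma), although its second probe set gave -0.11 (adjusted p = 0.906, limma). With Fads2 and Elovl3 it made up the 3 called genes of 22 in lipid synthesis (13.6% beside 7.68% of all genes). The call for Fads2 (-0.53) was lost without any 1 of the arrays other than BALB/c replicate 1, with adjusted p up to 0.248. Lipg, the endothelial lipase, named after its values were seen, was at 3076, 3091 and 4579 against 1275, 695.3 and 876.1 (-1.91 ± 0.47). That call was lost without BALB/c replicate 3 or DBA replicate 2, with adjusted p up to 0.0612.

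B cell genes were lower in DBA. Of 14 tested 8 were lower and 1, Ly6d, was higher, a share of 64.3% called beside 7.68% of all genes, and the median difference was -0.70. Ms4a1, which encodes the B cell surface protein CD20, was at 919.6, 1158 and 1332 in BALB/c and 390.9, 436.6 and 328.4 in DBA (-1.49 ± 0.29, adjusted p = 0.00108, limma). Cd79a, the signalling chain of the B cell receptor, was at 765.3, 1053 and 1199 against 422.5, 361.7 and 416.9 (-1.26 ± 0.29). The B cell follicle chemokine receptor gene Cxcr5 (-1.26), the kinase gene Blk (-1.06) and the adaptor gene Bank1 (-0.75) differed likewise. The call for Cxcr5 was lost with controls pooled over code series (-0.68, adjusted p = 0.0919, limma). Calls for Cd79b (-1.02) and Cd37 (-0.65) were lost without BALB/c replicate 2 or 3 or DBA replicate 1 or 3 (adjusted p up to 0.0855 and 0.0943). The call for Pou2af1 (-1.02) was lost without BALB/c replicate 3 or DBA replicate 2 or 3 (adjusted p up to 0.0881), and that for Ly6d (1.10) without any array but BALB/c replicate 3 (adjusted p up to 0.163).

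Ighm, the heavy chain of IgM, was at 5172, 4908 and 7312 in BALB/c and 1892, 1358 and 2602 in DBA (-1.59 ± 0.32, adjusted p = 0.00173, limma). Of its 8 probe sets, 6 of the other 7 had the same sign and 1 of them was called. Their mean gave -0.61 (adjusted p = 0.714, limma). Cxcl13, the chemokine that draws B cells into follicles, was at 1999, 1965 and 2720 against 658.6, 864.3 and 1022 (-1.37 ± 0.37), a call lost without BALB/c replicate 3 or DBA replicate 1 or 2, with adjusted p up to 0.0981. The T and NK cell list had 1 of 16 called, Cd2 (-1.08), with a median of 0.04. Summed B cell signal was 6482 to 8617 in BALB/c, 4443 to 4913 in DBA and 4712 to 5275 in F1. In the other controls the B cell genes did not separate the strains in this way: 0 of 14 were lower in DBA (median -0.05), 8 had a negative sign, and the sums overlapped (4202 to 7585 in BALB/c, 5228 to 5498 in DBA). The difference between the sets of controls was called for Blk (-1.20, adjusted p = 0.0318, limma) and Cd79b (-1.39, adjusted p = 0.0418, limma) and missed the threshold for Ms4a1 (-1.18, adjusted p = 0.11, limma).

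Macrophage genes differed in both directions. Mgl2, a C-type lectin of tissue macrophages named after its values were seen, was at 806.4, 626.0 and 656.4 in BALB/c and 174.4, 220.2 and 147.2 in DBA (-1.82 ± 0.26). Ccl24, an eosinophil attractant made by resident macrophages, was at 463.7, 607.9 and 731.1 against 160.3, 209.7 and 223.6 (-1.48 ± 0.34, adjusted p = 0.00668, limma). Of 18 genes of resident and alternatively activated macrophages 3 were called (16.7% beside 7.68% of all genes, median -0.29), Ccl24, Ccl8 and Cd209f. Ccl8, a monocyte attractant, was lower (-0.88), a call lost without BALB/c replicate 1 or 2 or DBA replicate 1 (adjusted p up to 0.199). The lectin gene Cd209f was higher (1.26), a call lost without BALB/c replicate 2 or 3 or DBA replicate 2 (adjusted p up to 0.0867). Of 22 monocyte and macrophage markers 13.6% were called. Lyz1 and Lyz2 were lower (-0.50 and -0.49) and Mpeg1 was higher (0.75). The calls for Lyz2 and Mpeg1 were lost without any 1 of the 6 arrays, and that for Lyz1 without any but BALB/c replicate 1, with adjusted p up to 0.165. Lyz1 and Lyz2 are near-identical genes whose signals cannot be told apart with certainty. In the treated arrays their differences were positive, 0.50 and 0.54.

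Mesothelial genes, which mark the lining cells of the peritoneum, were lower in DBA in 4 of 13 (30.8% beside 7.68% of all genes) with a median of -0.58, and 12 of 13 had a negative sign. Ezr, the linker of membrane and actin, was at 1247, 1360 and 1726 in BALB/c and 787.2, 963.0 and 782.4 in DBA (-0.75 ± 0.15, adjusted p = 0.00202, limma). Its second probe set gave -0.15 (adjusted p = 0.937, limma), and with controls pooled over code series the difference was -0.28 (adjusted p = 0.207, limma). Krt19, an epithelial keratin, was at 1916, 1870 and 2931 against 1014, 1489 and 1369 (-0.77), and its call was lost without BALB/c replicate 3 or DBA replicate 1, with adjusted p up to 0.101. The call for Wt1 (-0.73) was lost without BALB/c replicate 3 or DBA replicate 1 or 2 (adjusted p up to 0.209), and that for Gpm6a (-0.62) without any 1 of the 6 arrays (adjusted p up to 0.193). Summed mesothelial signal was 26606 to 36546 in BALB/c and 18870 to 24669 in DBA. In the other controls 1 of 13, Wt1, was lower (median -0.14).

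Chaperone genes were listed only after the values were seen. Of 18 chaperones and cochaperones then listed, 15 were lower in DBA, beside 3.64% of all genes, and all 18 had a negative sign. The list was drawn up from these data and has no test. Hsph1, an HSP110 exchange factor that works with HSP70, was at 5724, 4989 and 4978 in BALB/c and 1115, 1176 and 1198 in DBA, 4.5-fold less by mean signal (-2.14 ± 0.28, adjusted p = 8.53e-06, limma). Hspa1b, the inducible HSP70 whose upstream sequence is given above, was at 4100, 4270 and 3476 against 1450, 1400 and 1431 (-1.45 ± 0.36, adjusted p = 0.0111, limma). Its near-identical neighbour Hspa1a differed by -1.08, a call lost when any 1 of the 6 arrays was left out (adjusted p up to 0.143).

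The constitutive Hspa8 was at 22195, 23179 and 22518 in BALB/c and 9322, 10957 and 13390 in DBA (-1.03 ± 0.16). The mitochondrial cochaperonin gene Hspe1 was at 10703, 13481 and 12308 against 6900, 6817 and 7075 (-0.80 ± 0.10), and the HSP90 cochaperone gene Chordc1 at 3208, 3232 and 3304 against 1535, 1616 and 1810 (-0.97 ± 0.12). Dnaja1 (-0.97), Hspa4l (-0.91), Dnajb1 (-0.82), Hsp90aa1 (-0.70), Ahsa1 (-0.63) and Cacybp (-0.61) were lower as well. Hspb1 (-0.55) and Stip1 (-0.70) lost their calls without DBA replicate 2 (adjusted p = 0.0845 and 0.0693), and Fkbp4 (-0.62) without BALB/c replicate 1 or 3 or DBA replicate 1 or 3 (adjusted p up to 0.0575). Cryab (-0.43), Hspd1 (-0.28) and Bag3 (-0.16) were not called.

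The 3 BALB/c arrays of this code series had the highest chaperone signal of all untreated arrays. Their summed chaperone signal was 108571 to 113932, above the 60761 to 67775 of DBA, the 63612 to 68952 of F1, and the 59663 to 86496 and 65470 to 88085 of the other BALB/c and DBA controls. In the other controls 0 of the 18 were lower and 2 were higher in DBA, with a median of 0.12. The difference between the sets of controls was called for 11 of the 18, beside 2.81% of all genes. Among them were Hspe1 (-1.10, adjusted p = 9.11e-05, limma), Hsph1 (-2.28, adjusted p = 0.00195, limma) and Hspa8 (-1.18, adjusted p = 0.00435, limma). The compared arrays from which the list was drawn up also enter this contrast, so the count is no separate test of the list. On day 3 of pristane 5 of 18 were lower in DBA (median -0.43), beside 4.43% of all genes. The change from the untreated difference was called for 0 of 18 by limma, beside only 0.492% of all genes. With so few calls in that contrast, the 0 does not show that the difference stayed the same. The lower level in DBA was thus not called for any of the 18 in the other controls. There 4 of 10 thermogenic genes were called higher and 1 lower, beside 6.74% and 9.15% of all genes. Of the 4 called higher, Elovl3, Otop1 and Cidea were also called in the compared controls and Fabp3 was not. Ucp1 missed the threshold in the other controls (1.16, adjusted p = 0.0968, limma).

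**Figure D3:**
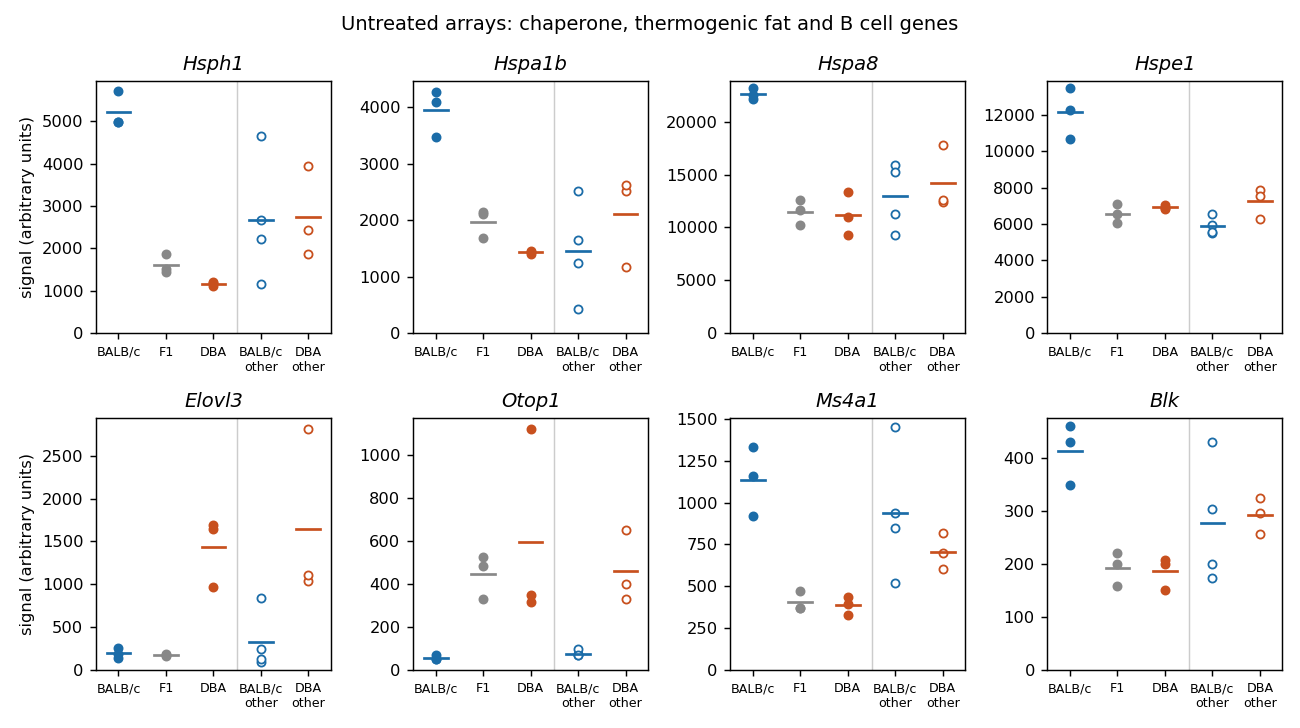
Signal on each untreated array of 4 chaperone genes (Hsph1, Hspa1b, Hspa8, Hspe1), a pair of thermogenic genes (Elovl3, Otop1) and a pair of B cell genes (Ms4a1, Blk); filled points are the compared code series with its F1 arrays, open points the other controls, and bars are group means. The chaperone signals of the 3 compared BALB/c arrays lie above all other untreated arrays in each of the 4 panels, while Otop1 is low on every BALB/c array and high on every DBA array.

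An immediate-early gene and some clock genes also differed between the sets of controls. Nr4a1, an orphan nuclear receptor switched on within minutes of a stimulus, was at 1044, 532.6 and 648.6 in BALB/c and 215.8, 265.4 and 404.1 in DBA (-1.25 ± 0.24, adjusted p = 0.00114, limma). In the other controls it was higher in DBA (1.80, adjusted p = 3.55e-06, limma), a difference between the sets of -3.05 (adjusted p = 8.98e-06, limma). Of 16 clock genes Ciart (1.46) and Per1 (1.00), both repressors of the clock, were higher and Nfil3 (-1.22) and Clock (-0.46) were lower. The call for Clock was lost without BALB/c replicate 1 or DBA replicate 2 or 3 (adjusted p up to 0.232). Nfil3, a repressor in the clock's output, had the opposite sign in the other controls (1.03, adjusted p = 0.00454, limma), and the change was called for Nfil3 (-2.25, adjusted p = 0.00126, limma) and Ciart (2.06, adjusted p = 0.0181, limma). Pooling controls over code series ended the calls for Nr4a1 (0.31), Nfil3 (-0.03), Ciart (0.46), Per1 (0.61) and, among the chaperones, Hspa1b (-0.26), with adjusted p from 0.271 to 0.963 (limma). The hour at which tissue was taken is not given in the labels, and its part in these differences was not tested.

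Of 52 tested enzymes and transporters of xenobiotic metabolism 5 were higher and 3 lower (15.4% beside 7.68% of all genes), with a median of -0.02. Akr1e1, an aldo-keto reductase, was at 581.9, 586.0 and 545.9 in BALB/c and 1277, 1321 and 1317 in DBA (1.16 ± 0.12, adjusted p = 1.55e-07, limma). Its difference was smaller in the other controls (0.28) and in the treated arrays (0.28), and both changes were called (0.87 and 0.88, adjusted p = 0.00435 and 0.0153, limma). Sult5a1, a sulfotransferase, was higher by 1.02 ± 0.16 and Gsto1, a glutathione transferase, by 0.57 ± 0.11. Cyp1a1, the classical target of the aryl hydrocarbon receptor, was at 234.6, 318.7 and 231.4 against 111.7, 80.0 and 78.8 (-1.31 ± 0.33). That call was lost without BALB/c replicate 2 or DBA replicate 2 or 3, with adjusted p up to 0.0639, and the gene was also lower in the other controls (-1.36, adjusted p = 0.00338, limma).

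Further lists with no called gene included matrix (32 tested, 0.02), complement and acute phase (20, -0.16), intestinal epithelium (14, 0.01), neurons and glia (9, 0.37), skeletal muscle (5, -0.04) and eosinophils with innate lymphoid cells (2, 0.20), where the second number is the median difference. Without the outlying BALB/c array 4 matrix and 2 complement genes were called. Of 10 smooth muscle genes 1 was called, Synpo2 (-1.97). Its 4 probe sets disagreed, and the call was lost without BALB/c replicate 1 (adjusted p = 0.0806).

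Genes tied by earlier genetics to plasmacytoma or to known strain lesions were read whatever their values. Mtor, the growth-control kinase, was at 1274, 1244 and 1179 in BALB/c and 1851, 1639 and 1778 in DBA (0.50 ± 0.12, adjusted p = 0.00861, limma); it stood at 0.04 in the other controls and 0.18 in the treated arrays, and its other probe set was not called. With controls pooled over code series it was at 0.23 (adjusted p = 0.242, limma). Clcn6, a chloride-proton exchanger of endosomes, was higher by 0.42 ± 0.12 and by 0.60 in the other controls, with the first call lost without any array but DBA replicate 1 (adjusted p up to 0.163). With Mndal these were the called genes among 8 candidates (37.5% beside 7.68% of all genes). Rb1 (0.44), Tnfrsf1b (-0.68), Myc (-0.07), Il6 (0.32) and Il6ra (0.50) were not called. Cdkn2a was below the dim filter and not tested, with signals of 7.3 to 37.7 in BALB/c and 9.2 to 34.4 in DBA.

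Of the classical strain lesions, Myo5a, the myosin disrupted in dilute coat colour, was at 2081, 1769 and 2311 in BALB/c and 854.8, 784.9 and 762.9 in DBA (-1.33 ± 0.29, adjusted p = 0.00408, limma). Its 2 other probe sets were called in the same direction, and it was lower too in the other controls (-0.96) and the treated arrays (-1.21). Gpnmb, a melanosome and macrophage glycoprotein, was at 356.4, 245.7 and 476.0 against 125.6, 113.1 and 260.5 (-1.04 ± 0.38, adjusted p = 0.101, limma) and was called only without DBA replicate 3 (adjusted p = 0.0479, limma). The metal transporter gene Slc11a1 (0.16) and the NK receptor gene Klrd1 (0.48, adjusted p = 0.124, limma) were not called. Hc, which encodes complement C5, was below the dim filter in both strains at 5.2 to 43.4, and for Ly6a no probe set carried that symbol alone.

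The strain differences were then read in arrays that the comparison had not used. Of the 525 genes higher in DBA, 420 (80.0%) had a positive difference in the other controls, where 50.5% of all genes did, and 210 were called in that direction against 6.74% of all genes; 18 were called in the opposite one. Of the 474 lower genes, 403 were negative there, where 49.5% of all genes were, 216 were called lower against 9.15% of all genes, and 13 were called higher. In the day 3 treated arrays 483 and 421 had the same sign (92.0% and 88.8%), with 227 and 214 called the same way and 2 and 2 the opposite way, beside 4.66% and 4.43% of all genes. These sets share no array with the comparison, and 274 genes were called the same way in all 3.

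On all 26 arrays of the parental strains, treated or not, 112 genes (0.86%) had every DBA array (12) above or below every BALB/c array (14), 52 higher (0.4%) and 60 lower (0.461%), and 104 of them were called here. Xaf1, Mrap2, Stab2, Hsd11b1 and Ccl27a were among the higher, and Mndal, Rarres1, Gbp2b, Aqp11 and Tgm3 among the lower. For 123 of the 999 (12.3%) the difference itself differed from that of the other controls, where 2.81% of all genes did, and for 33 (3.3%) from that of the treated arrays, where 0.492% did. These shares rest in part on the same 6 arrays that chose the 999.

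**Figure D4:**
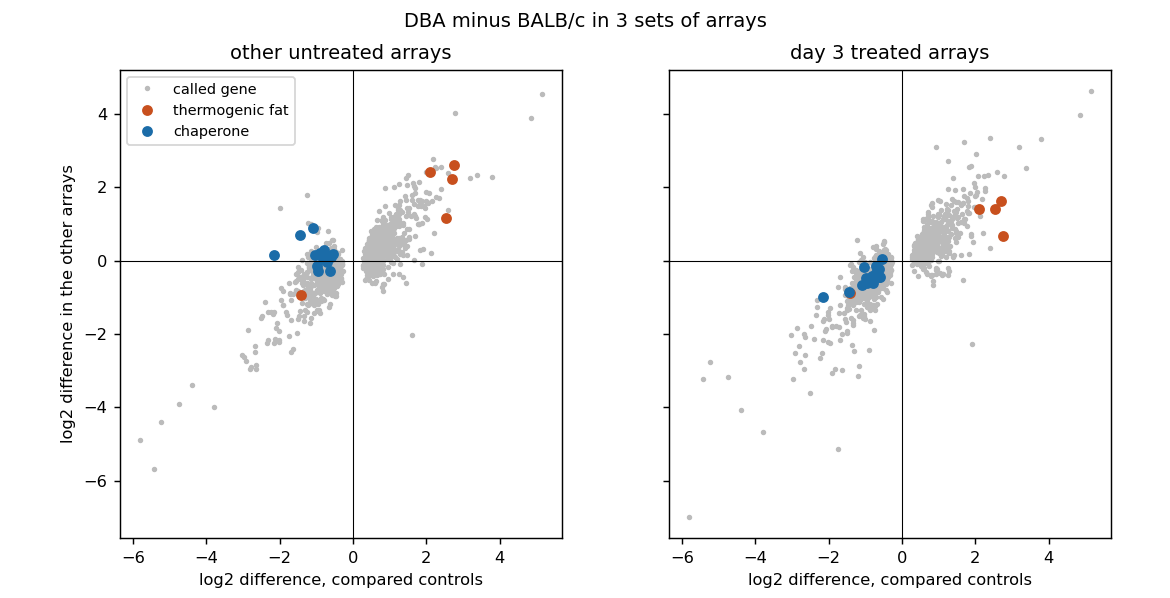
Log2 difference, DBA minus BALB/c, of the 999 called genes in the compared controls (x) and in the other untreated arrays (left) or the day 3 treated arrays (right), with thermogenic genes in orange and chaperones in blue. Most points keep their sign in both panels; the chaperones lie around 0 on the left.

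Among genes whose contrast changed after pristane, Rarres1 kept its direction with a smaller difference (-3.24), since treated BALB/c arrays had 1148 to 1355 beside 83.7 to 133.6 in DBA; the change was -2.19 (adjusted p = 5.76e-05, limma). Pla2g2e, a secreted phospholipase named after its values were seen, was at 10.2, 10.6 and 2.5 in BALB/c and at 75.2, 90.2 and 129.9 in DBA (1.90 ± 0.28). Of these untreated values only 129.9 lay above the dim filter of 103.7, so that the untreated level in BALB/c could not be told from background. After treatment the gene was lower in DBA (-2.28), a change of 4.18 (adjusted p = 1.09e-06, limma).

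F1 controls lay between the parental means for 882 of the 999 genes (88.3%), and for 287 of the 323 with a difference of at least 2-fold. With 0 standing for the BALB/c mean and 1 for the DBA mean on the log2 scale, the median F1 place over the 323 was 0.577. F1 values are beyond DBA in 27 of the 323 and beyond BALB/c in 9. These are descriptions, since the parental arrays chose the genes. Among the 24 genes with the largest differences the place ran from -0.143 in Tmem45b to 1.16 in Ncan, with Cldn34c1 at 0.0317, Xaf1 at 0.879 and Mcpt2 at 0.935. Among the chaperones Hsph1 was at 0.79, Hspa8 at 0.954 and Hspe1 at 1.1.

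A gene's other probe sets were examined because a strain variant under a probe can lower its signal. Tested singly, 7.42% of 27039 probe sets were called. Of the 999 genes, 469 had others that passed the dim filter, 779 in all. Of those, 629 (80.7%) had the sign of the brightest one, against 64.3% over all genes, and 198 (25.4%) were called the same way, against 4.93%. Another 27, in 22 genes, were called the opposite way. Among the genes with a difference of at least 2-fold, 96 of 197 other probe sets (48.7%) were called the same way and 10, in 8 genes, the opposite way.

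Those 8 genes include Xaf1, described above, and Kctd14, a BTB-domain protein, whose brightest probe set was at -2.23 and others at 1.80, 2.44 and 0.25. Hspa13, an HSP70 relative of the endoplasmic reticulum, was lower by 1 probe set (1957, 2322 and 2140 in BALB/c, 859.9, 680.9 and 685.6 in DBA, -1.50) and higher by another (369.8, 320.0 and 456.7 against 1589, 1321 and 1649, 1.93). Exosc1, a subunit of the RNA exosome, gave 1.47 and -1.65. In Xaf1, Hspa13 and Exosc1 each probe set kept its own sign in the other controls and in the treated arrays. Adi1, an enzyme of methionine salvage, had -2.65, -5.11 and 0.34. For these genes the direction or size of a strain difference in transcript level cannot be read from the array. Of the 24 genes with the largest differences 9 had another probe set that passed the filter. In 8 of these all the others had the same sign, and in Xaf1 the other did not; the other 15 genes rest on 1 probe set.

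**Figure D5:**
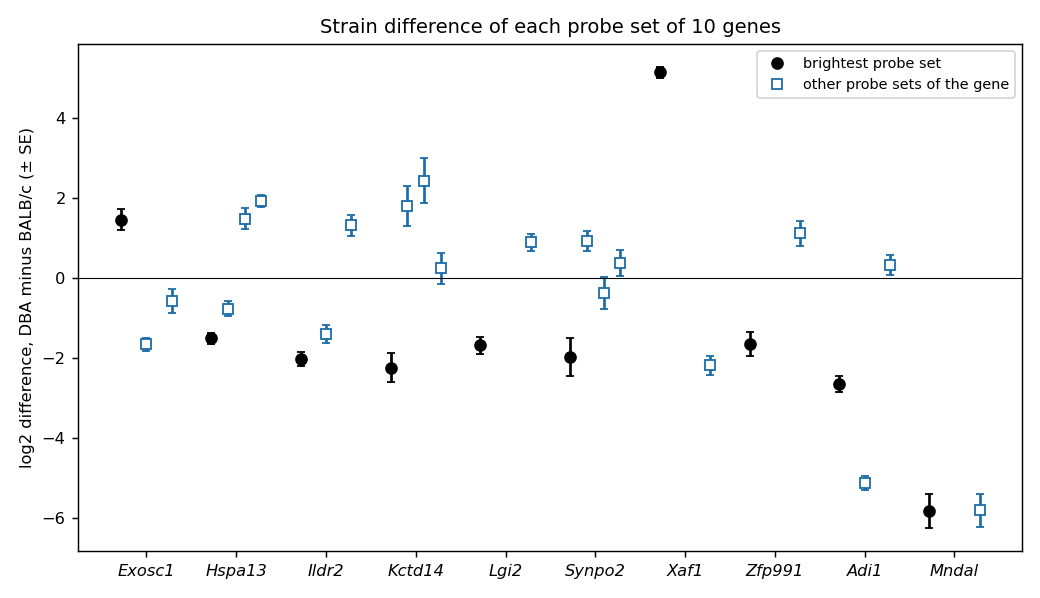
Log2 difference, DBA minus BALB/c (± SE, 3 arrays each), of every probe set that passed the dim filter in 10 genes, the brightest as a filled circle and the others as open squares. In the 8 genes from Exosc1 to Zfp991 a called probe set lies across 0 from the brightest one; Adi1 ranges from -5.11 to 0.34 and both sets of Mndal lie near -5.8.

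The position of the called genes was read from RefSeq. By gene order, 21.4% of the 995 called genes that could be placed had a called gene as an immediate tested neighbour, against 13.8% of uncalled genes. There were 16 runs of 3 or more called genes. The longest held 7, in the order Nnt (-0.52), Paip1 (1.68), 4833420G17Rik (-1.34), Tmem267 (-2.97), Ccl28 (-0.71), Hmgcs1 (0.78) and Zfp131 (-0.82). The call for Ccl28 was lost without any 1 of the 6 arrays, that for Nnt without any but DBA replicate 3 and that for Hmgcs1 without BALB/c replicate 2 or 3 or DBA replicate 1 (adjusted p up to 0.232, 0.127 and 0.223), whereas the other 4 kept theirs. The other probe sets of Paip1 gave 1.39, -0.75 and -0.32, of which only the first was called. Those of Hmgcs1 gave -0.45, 0.45, 0.12 and 0.006, none called. Those of 4833420G17Rik gave -1.51 and -0.89, both called, and 0.53, not called. In some runs all genes went one way, as with Cpsf3 (0.82), Iah1 (1.01) and Adam17 (0.86), and in others the directions were mixed. Ucp1 stood in a run with Elmod2 (0.68) and Scoc (-1.23), Ccl27a with Dctn3 (-0.47) and Galt (0.51), and Phkg1 with Sumf2 (0.83), Zbed5 (0.81) and Nupr1l (-1.02). Clcn6 lay between 2510039O18Rik (-1.44) and Agtrap (-1.64). Overlapping transcripts of neighbours can share signal on an array.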

How the data were processed

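The series holds 32 arrays of the Affymetrix 430 2.0 type, each hybridised with RNA from mesentery of mice. The deposited values are intensities, 1 signal a probe set, per the submitters' processing notes made with GCOS and MAS5; their versions are not given in the sources used here. The 2% trimmed mean was computed for the first array of the series only and was 500. Per-probe values and detection calls were not used here, so the number of arrays limits the precision and background could not be re-estimated.

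Groups came from the strain, time and title labels. Of 45101 probe sets 34958 carried 1 symbol. Apart from array controls, probe sets above 103.7 on at least 3 arrays were kept (27039), whatever symbols they carried. Each of 13016 genes was read by its brightest kept probe set with exactly 1 symbol. Signals were taken as log2(signal + 24.9), the offset being the 25th percentile of all values. A linear model with a level for each group in each code series was fitted to all 32 arrays with limma 3.58.1 (R 4.3.3, moderated variance with intensity trend, two-sided, Benjamini-Hochberg over all genes). The compared controls enter only the contrast of their means, and all arrays the spread. Named genes were the 12 largest called differences each way with no overlap of the 3 and 3 arrays, without predicted genes, sex-linked markers and immunoglobulin segments; up to 4 called genes of each list; and 8 genes set by name. Other genes were named after their values were seen. The genes compared and the lists were chosen with earlier results of these data known. Tests of differences between array sets, separation over 26 arrays and the chaperone list were added after seeing the data. On simulated data with 100 genes each changed by 1 and 2 log2 units among 13016, the comparison recovered 72.7% and 96%, and 3.58% of calls were false.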

Additional observations from a re-analysis of the deposited data

Results flagged for a closer look

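Strain differences were compared between sets of arrays (limma contrast of the differences, adjusted over all genes). They differed for 13 of the genes named by rule. Of these, 7 differed against the other controls alone, 5 against the day 3 treated arrays alone and Akr1e1 against both. Of all genes tested, 2.81% differed against the other controls and 0.492% against the treated arrays. Apart from genes set by name, the rule took genes called in the compared controls, which also enter both contrasts. Genes outside the rule that differed included Hspe1, Hsph1, Hspa8, Blk and Cd79b (other controls) and Pla2g2e (treated arrays). Against the other controls, whose strains lie in different code series, the difference in the compared controls was larger by 1.49 in Stab2, 0.87 in Akr1e1 and 2.06 in Ciart, and was more negative, by -0.86 in Ezr, -2.25 in Nfil3, -2.13 in Hspa1b, -3.05 in Nr4a1 and -1.96 in Hspa1a. Of these, Nfil3 and Nr4a1 were called in opposite directions in the 2 sets. Hspa1a and Hspa1b are near-identical and count as 1 observation. Against the day 3 treated arrays, it was more negative by -2.19 in Rarres1, -1.003 in Lyz1 and -1.03 in Lyz2, larger by 0.88 in Akr1e1, and less negative, by 3.38 in Ifi44l and 1.54 in Rtp4. Lyz1 and Lyz2 changed sign between untreated and treated arrays and are likewise near-identical.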

How the results depend on the processing

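The 999 calls became 1785 with the 18 arrays of the code series alone, 1653 without the outlying BALB/c array of another series, and 2135 with array weights; 984, 999 and 998 of the original genes were among them. Probe sets tested singly gave 2005 calls and second brightest probe sets 412 of 6038 genes; the remaining settings, other than leaving out an array, kept the count within 1.5 times. Leaving out 1 of the 6 arrays gave 635 to 756, leaving out 1 of the other controls gave 1213 to 2607 calls there (1213 without DBA replicate 2, 1367 without DBA replicate 3), and leaving out 1 treated array gave 717 to 969 in place of 1184 (717 without BALB/c replicate 1, 738 and 742 without DBA replicate 2 and 3). The treated contrast fitted on its 6 arrays gave 2316. Signs reversed for Xaf1 (-2.18), Synpo2 (0.93) and Gpnmb (0.0047) on the second brightest probe set, and for Nr4a1 with controls pooled over code series (0.31); the cause was not tested. Of 74 named called genes 31 kept sign and call under every alternative run, as did 22 of the 24 with the largest differences, the exceptions being Xaf1 and Gramd3 (-0.72, adjusted p = 0.155 on its second probe set). Leaving out 1 of the 6 arrays ended the call for 31 of the 74 and reversed none. Of the 74, pooling controls over code series ended the call of 20 and reversed 1, median centring ended 16, quantile normalization 12, no dim filter 11, the mean over probe sets 10 and an ordinary linear model 9. Of the 29 with a second probe set, 14 were no longer called on it and 2 reversed. The other settings that kept all 6 arrays ended at most 7 each. No paired analysis was possible because the labels give no replicate numbers that groups share.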
